A study of Mus musculus with 4 samples.

Results

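The genes described here encode the nuclear subunits of respiratory complex III other than the Rieske protein, together with cytochrome c, the carrier that complex III reduces. They were chosen by name: Uqcrc1, Uqcrc2, Uqcrb, Uqcrq, Uqcrh, Uqcr10, Uqcr11, Cyc1 and Cycs, 9 of the 43430 genes in the count table. All 9 had enough reads to be tested, among 13281 tested genes. RNA came from CD4+CD8+ double-positive (DP) thymocytes, an intermediate stage of T cell development in the thymus, sorted from C57BL/6 mice. The 2 knockout (KO) libraries are from Uqcrfs1fl/fl; CD4-Cre+ mice, in which floxed alleles of the Rieske protein gene Uqcrfs1 meet a Cre recombinase driven by Cd4 regulatory sequence, active from the DP stage on. The 2 control libraries carry the genotype label WT, whereas the series description calls the control mice heterozygous littermates, and "WT" is used here as the name of that group only. The Cre status of the controls, like the age and sex of the mice, is not given by the sources used here. Each group held 2 mice and has 2 libraries, and values are listed below in the order WT replicate 1, WT replicate 2, KO replicate 1, KO replicate 2.

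Complex III takes electrons from ubiquinol and passes them to cytochrome c, and it moves protons across the inner mitochondrial membrane while doing so. Cytochrome b, from the mitochondrial genome, is joined early in assembly by Uqcrb and Uqcrq. The core proteins Uqcrc1 and Uqcrc2 and the cytochrome c1 module (Cyc1, Uqcrh and Uqcr10) follow, and the Rieske protein and Uqcr11 are added last. The Rieske protein carries electrons from ubiquinol to cytochrome c1. Cytochrome c then carries them to complex IV, and when released into the cytosol it triggers the apoptosome.

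The libraries held 30408863 to 34080516 reads assigned to genes. The targeted gene checks the labels: Uqcrfs1 had 61.4, 57.2, 15.6 and 18.6 CPM (CPM is a count scaled to the library's total and to TMM, a factor that equalises libraries on the bulk of their genes). Its log2 change was -1.80 with a standard error (SE) of 0.09, and some Uqcrfs1 RNA was still counted in both KO libraries. The defining DP genes were abundant in every library, with Cd4 at 1934 to 2092 CPM, Cd8a at 2953 to 3225 CPM and Rag1 at 5477 to 6595 CPM. Of the 9 DP markers, 5 had a log2 change below 0 (50.1% of all genes tested) and 4 above. In 4 of the 9, Cd8a, Cd8b1, Cd3e and Cd3g, both KO libraries were below both WT libraries (20.1% of all genes tested). Their log2 changes ran from -0.12 to -0.09, and that of Rag1 was 0.12. What part this has in the differences below was not tested. WT replicate 1 stood apart in the 16 markers of proliferating cells, whose summed level was 6558, 5601, 5719 and 5930 CPM. The 5 markers of the preceding double-negative (DN) stage summed to 98.1, 100.1, 129 and 166 CPM, higher in both KO libraries. Most of that sum was Notch3 (65.86, 65.08, 82.52 and 98.41). Dtx1 (10.97, 11.23, 18.42 and 25.28) and Cd44 (9.687, 10.18, 12.32 and 11.82) were also higher in both KO libraries. So was Il2ra (8.499, 10.51, 12.91 and 26.45), which stood out in KO replicate 2. Kit (3.077, 3.129, 2.846 and 3.499) was lowest in KO replicate 1, and its groups overlapped. The part of DN cells in the differences below was not tested. Of the other lists of cells that a sort could hold, the 6 myeloid markers summed to 73.1 to 77.0 CPM, most of it Cst3. In KO replicate 2 Lyz2 (0.487, 0.231, 0.499 and 5.36 CPM), Csf1r (0.152, 0.132, 0.117 and 1.32) and Itgax (0.0914, 0.132, 0.0587 and 1.01) stood out together. Cst3 was lowest there (59.0, 60.6, 56.5 and 50.8), and Cd68 (6.89, 5.70, 6.57 and 6.21) and Itgam (9.47, 10.2, 9.42 and 10.97) did not stand out. The part of myeloid cells in the differences below was not tested. The 5 B cell markers summed to 25.5 to 29.5 CPM and the 5 stromal markers to 144 to 157 CPM. The 6 erythroid markers summed to at most 0.221 CPM, with Hba-a1 and Hba-a2 at 0 counts in every library.

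The coding sequence of some members recurs in other annotated genes, which bears on how their reads can be assigned. To measure this, every stretch of 50 bases of each principal transcript was looked up, on both strands, among the transcripts of all other genes in the GENCODE M21 annotation of mm10. In Cycs all 266 of 266 coding stretches recurred, in 10 pseudogenes and in Gm10053, and 877 of 3074 stretches recurred over the whole transcript. In Uqcrb 207 of 284 coding stretches recurred, in Uqcr11 40 of 119 and in Uqcrh 39 of 218, each in pseudogenes. The coding sequences below show this directly; they run 5′ to 3′ on the minus strand of mm10 from the start codon, up to the first 300 bases, and capitals mark bases that lie in no recurring stretch.
Cycs: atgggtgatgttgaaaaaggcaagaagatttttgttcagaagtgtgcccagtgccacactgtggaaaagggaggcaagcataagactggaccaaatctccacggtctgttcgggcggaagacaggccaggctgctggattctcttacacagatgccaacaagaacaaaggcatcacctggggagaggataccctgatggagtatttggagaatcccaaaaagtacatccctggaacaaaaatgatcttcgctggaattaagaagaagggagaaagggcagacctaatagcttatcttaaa
Uqcrb: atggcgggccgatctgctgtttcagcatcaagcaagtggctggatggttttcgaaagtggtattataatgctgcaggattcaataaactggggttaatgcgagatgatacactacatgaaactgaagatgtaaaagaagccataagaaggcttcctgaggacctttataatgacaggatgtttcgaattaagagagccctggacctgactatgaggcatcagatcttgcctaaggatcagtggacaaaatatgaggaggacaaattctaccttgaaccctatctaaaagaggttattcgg
Uqcr11: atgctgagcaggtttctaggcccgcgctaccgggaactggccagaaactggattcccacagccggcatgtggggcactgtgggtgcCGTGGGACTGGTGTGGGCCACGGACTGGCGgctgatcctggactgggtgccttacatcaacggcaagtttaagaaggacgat
Uqcrh: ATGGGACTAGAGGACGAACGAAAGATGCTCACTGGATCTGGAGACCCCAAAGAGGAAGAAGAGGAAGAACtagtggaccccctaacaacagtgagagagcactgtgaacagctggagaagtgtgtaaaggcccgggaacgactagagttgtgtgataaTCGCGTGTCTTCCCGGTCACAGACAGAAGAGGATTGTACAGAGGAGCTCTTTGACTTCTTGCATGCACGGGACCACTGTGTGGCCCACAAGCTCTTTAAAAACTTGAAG
The 315 coding bases of Cycs and the 333 of Uqcrb hold no capital, whereas Uqcr11 holds 30 of 168 and Uqcrh 179 of 267. In Uqcrb only 168 of 535 transcript bases lay outside recurring stretches, all of them outside the coding sequence, against 2086 of 3123 in Cycs. Few reads were assigned to the copies. The 6 Cycs copies in the count table summed to 7, 0, 5 and 3 counts, and Gm10053 had 1, 0, 0 and 0 counts. The 3 Uqcrb copies summed to 21, 7, 16 and 13 counts, Gm16418, which matches Uqcr11, had 2, 2, 0 and 0 counts, and Uqcrh-ps1 and Uqcrh-ps2 had at most 9 and 5 counts. Reads with more than 1 alignment were left unassigned by the counting, and were 23.2% to 24.7% of the aligned records; how many of them came from Cycs or Uqcrb was not tested, so the levels of both are uncertain. For Uqcrc1, Uqcrq, Uqcr10 and Cyc1, 0 stretches recurred. Uqcrc2 shared 458 of 1847 stretches with Pdzd9, which is no copy elsewhere but a gene on the opposite strand of the same locus. The exons of Pdzd9 overlap 504 of the 2552 exonic bases of Uqcrc2, and Pdzd9 had 3 to 5 counts. How reads from the overlap were assigned was not tested.

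KO was set against WT to see how the other subunits' transcripts stood in cells whose Rieske gene was targeted. All 9 had a lower fitted level in KO (log2 change below 0), against 50.1% of all genes tested. The median log2 change was -0.10, against 0.00 over all genes tested, and the members ranged from -0.28 to -0.06 with a standard deviation of 0.068 between them. In 6 of the 9 both KO libraries were below both WT libraries, against 20.1% of all genes tested. None passed the threshold: 0 of 9 had a Benjamini-Hochberg adjusted p under 0.05 over all genes in edgeR's quasi-likelihood test, in which 0.0226% of all genes passed. At an unadjusted p under 0.05 there were 3 (Uqcrq, Uqcr11 and Uqcr10), all lower in KO, against 4.01% of all genes. DESeq2 called 0 of the 9, of 0.109% of genes called, and edgeR's likelihood ratio test called 1 (Uqcrq), of 0.760% called. Libraries of bulk RNA do not tell fewer cells of a type from less RNA per cell. Called counts of all genes moved with the setting, and beside the members they were 0.911% without a filter on low counts (1 member called), 0.203% with the replicate number as a block (0 called) and 2.65% without WT replicate 2 (1 called).

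The summed level of the 9 genes was 859, 801, 780 and 767 CPM. The groups did not overlap, but WT replicate 1 was farther from WT replicate 2 than WT replicate 2 was from either KO library. The WT mean was 830 ± 40.9 CPM and the KO mean 773 ± 9.22 CPM (SD, n = 2 each), a difference of -6.83%. Leaving out WT replicate 1 made it -3.47%, and leaving out WT replicate 2 made it -9.96%. WT replicate 1 was the highest library for 8 of the 9 genes, against 30.4% of all genes tested, and it was also the highest for the summed proliferation markers; the part of proliferation in the members' difference was not tested. Without WT replicate 1 the median log2 change of the members was -0.06. All 9 were still below 0 (49.7% of all genes), with Uqcrc1, Uqcrb and Cyc1 at -0.01, and 6 were lower without overlap (35.8%). Of the 16 proliferation markers 16 had a log2 change below 0 (50.1% of all genes), with a median of -0.09, and in 2 the groups did not overlap (20.1%). Their sum differed between KO and WT by -4.20% with all libraries, by 3.99% without WT replicate 1 and by -11.2% without WT replicate 2. Without WT replicate 2 the groups did not overlap for 9 of 9 members (38.8%), and without KO replicate 2 there were 8 of 9 lower (51.5%).

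**Figure D1:**
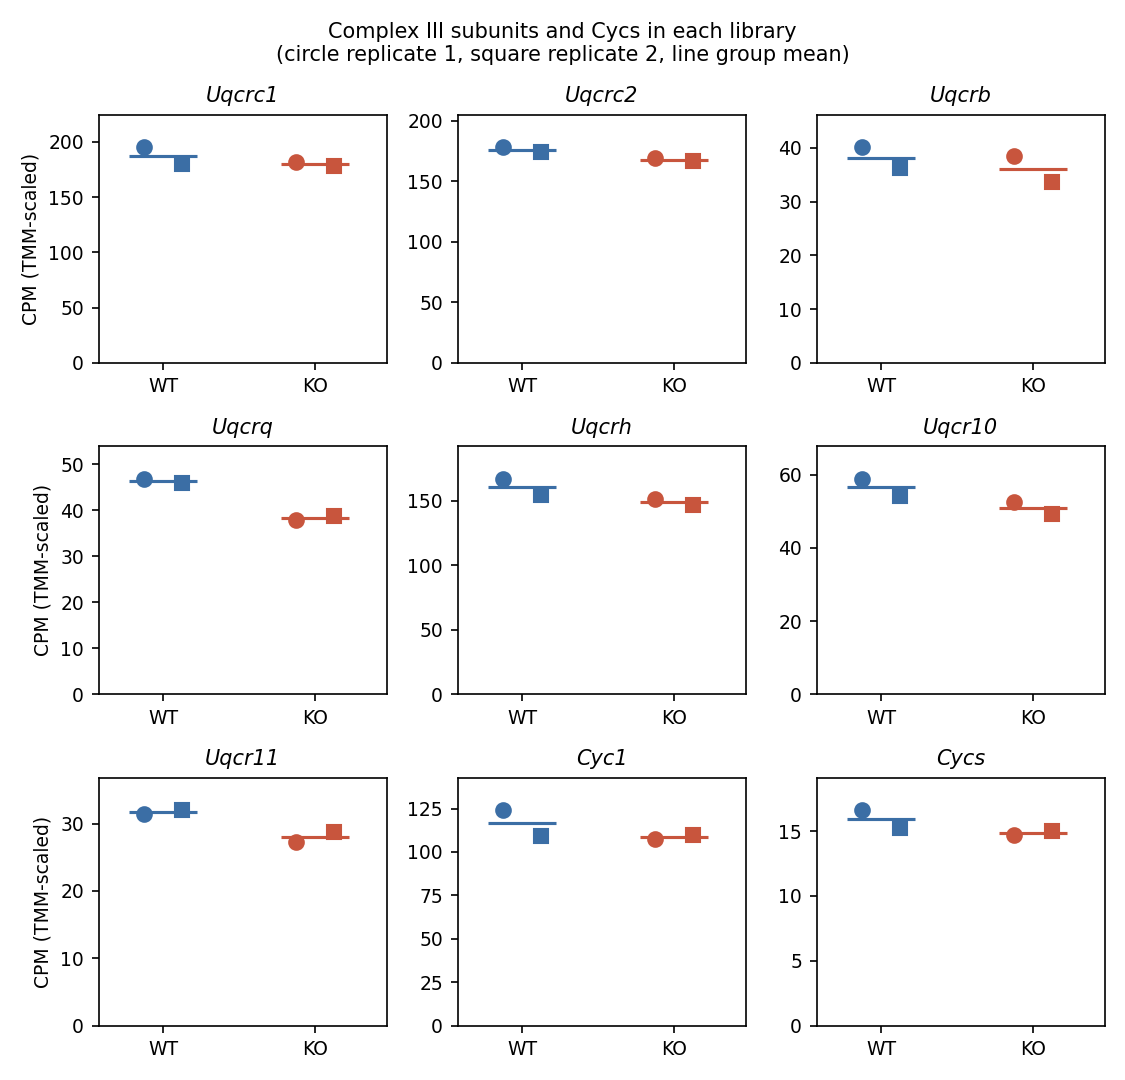
TMM-scaled CPM of each of the 9 genes in the 4 libraries, with WT in blue, KO in red and a line at each group mean (n = 2). Each vertical axis starts at 0. Uqcrq shows the clearest gap, from 46.01 in the lower WT library to 38.8 in the higher KO library, while the groups overlap for Uqcrc1, Uqcrb and Cyc1.

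Of the early partners of cytochrome b, Uqcrq was the member with the largest log2 change. Uqcrq encodes a small subunit that sits in the membrane beside cytochrome b, and lies on chromosome 11 from 53427922 to 53430831 on the minus strand (mm10, as in the deposited table). Its levels were 46.9, 46.01, 37.9 and 38.8 CPM, from 1539, 1397, 1292 and 1230 counts. Both KO libraries were below both WT libraries, and each pair of replicates differed by less than its own counting error. The log2 change was -0.28 (SE 0.06, 95% interval -0.42 to -0.14), or -17.5%, with an edgeR quasi-likelihood adjusted p = 0.392 (unadjusted p = 0.00148). It lay between -0.295 and -0.26 whichever library was left out, but its adjusted p ran from 0.0199 to 0.906 over the alternatives, and it passed in 3 of them. In the authors' deposited table Uqcrq had a log2 change of -0.28 and an adjusted p of 0.0350, the only member under 0.05 there, against 0.693% of all genes in that table, and the authors did not mark it as lower. The genes marked in the authors' deposited table had an adjusted p of at most 0.0092.
Uqcrb, the other early partner, contributes to the site where ubiquinone binds and lies on chromosome 13 from 66900617 to 66905378 on the minus strand. Its 4 values were 40.1, 36.2, 38.5 and 33.7 CPM. KO replicate 1 was above WT replicate 2, so the groups overlapped, and the replicates differed by 2.54 (WT) and 3.23 (KO) times their counting error. The log2 change was -0.08 (SE 0.09, interval -0.27 to 0.11, adjusted p = 0.812 by edgeR quasi-likelihood). It was 0.01 without KO replicate 2, -0.18 without KO replicate 1 and -0.01 without WT replicate 1. The recurring sequence shown above applies to all of these Uqcrb values.

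The core proteins, which face the matrix and resemble the subunits of the peptidase that cleaves mitochondrial presequences, had the smallest log2 changes of the set. Uqcrc1 (chromosome 9, 108936633 to 108949623, plus strand) had 195, 180, 181 and 178 CPM. KO replicate 1 exceeded WT replicate 2, and the log2 change was -0.06 (SE 0.05, interval -0.18 to 0.06; adjusted p = 0.776 by edgeR quasi-likelihood). It was -0.01 without WT replicate 1. Uqcrc2 (chromosome 7, 120635176 to 120659478, plus strand) had 178, 174, 169 and 167 CPM. Its groups did not overlap. On the log2 scale its change was -0.07 (SE 0.05, interval -0.18 to 0.04; adjusted p = 0.700 in the same test). The interval for Uqcrc2 therefore takes in a change from -11.5% to 2.71%. The peptidase subunit genes Pmpca and Pmpcb, which are related to the core proteins, had log2 changes of 0.01 (SE 0.05) and -0.09 (SE 0.06).

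In the cytochrome c1 module, Cyc1 encodes the haem-bearing subunit that hands electrons to cytochrome c, and lies on chromosome 15 from 76343523 to 76345934 on the plus strand. Cyc1 had 124, 109, 107 and 110 CPM. WT replicate 1 was alone above the other 3 libraries, and WT replicate 2 was below KO replicate 2. The 2 WT replicates of Cyc1 differed by 5.59 times their counting error. The log2 change was -0.10 (SE 0.07, interval -0.25 to 0.05; adjusted p = 0.693 by edgeR quasi-likelihood), and it ran from -0.01 (WT replicate 1 left out) to -0.20 (WT replicate 2 left out).
Uqcrh encodes the acidic hinge protein at the docking site of cytochrome c on cytochrome c1, and lies on chromosome 4 from 116066965 to 116075071 on the minus strand. Its values were 167, 154, 151 and 147 CPM, with no overlap. Its log2 change came to -0.11 (SE 0.06, interval -0.24 to 0.01; adjusted p = 0.627). Uqcr10, a small subunit of the same module on chromosome 11 from 4701973 to 4704342 on the minus strand, had 58.9, 54.3, 52.6 and 49.1 CPM. Its groups did not overlap either. Between the group means the log2 change was -0.15 (SE 0.07, interval -0.31 to -0.003; unadjusted p = 0.0468, adjusted p = 0.586 by edgeR quasi-likelihood), and -0.10 without WT replicate 1.

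Uqcr11, the small subunit that is added last with the Rieske protein, lies on chromosome 10 from 80402997 to 80406830 on the minus strand. Uqcr11 had 31.3, 32.01, 27.2 and 28.7 CPM. The groups did not overlap, and it was the one member that was highest in WT replicate 2. The log2 change was -0.18 (SE 0.07, interval -0.34 to -0.02), or -11.7%, with an edgeR quasi-likelihood adjusted p = 0.564 (unadjusted p = 0.0346). It lay between -0.22 and -0.14 with any 1 library left out.

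Cycs, the somatic cytochrome c gene, lies on chromosome 6 from 50562563 to 50566538 on the minus strand. Cycs had 16.6, 15.2, 14.7 and 14.97 CPM, from 546, 463, 501 and 475 counts. The groups did not overlap, but the gap between WT replicate 2 and KO replicate 2 was 0.276 CPM, and the counting error of the library with the fewest counts was 4.65%. The log2 change was -0.10 (SE 0.10, interval -0.32 to 0.11; adjusted p = 0.784 by edgeR quasi-likelihood), which takes in a change from -20.0% to 8.08%. It ran from -0.04 (WT replicate 1 left out) to -0.17 (WT replicate 2 left out). The whole coding sequence of Cycs recurs elsewhere, as shown above, which applies to each of these values.

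**Figure D2:**
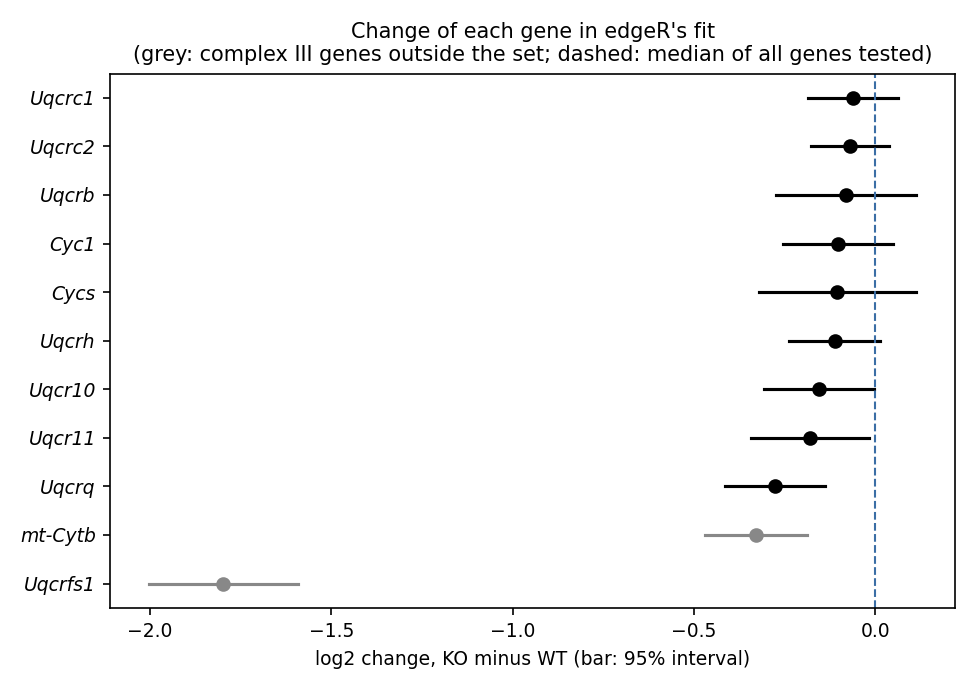
Log2 change from WT to KO of each gene with its 95% interval from edgeR's quasi-likelihood fit on all genes; the dashed line is the median of all genes tested. All 9 members lie left of the line, between -0.28 and -0.06, and the intervals of Uqcrq, Uqcr11 and Uqcr10 stay below 0. In grey are mt-Cytb at -0.33 and the targeted gene Uqcrfs1 at -1.80.

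**Figure D3:**
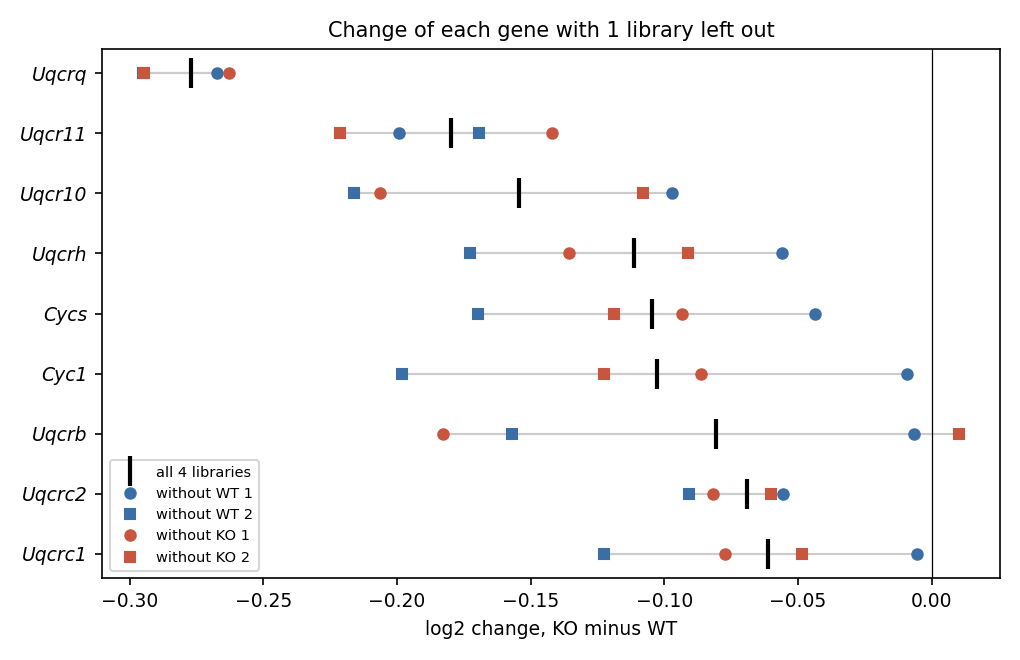
Log2 change from WT to KO of each member with all 4 libraries (black bar) and with each library left out in turn (points). Leaving out WT replicate 1 brings Uqcrc1, Uqcrb and Cyc1 to -0.01. Leaving out KO replicate 2 brings Uqcrb to 0.01, while Uqcrq stays between -0.295 and -0.26.

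The remaining subunits of complex III set the scale for these values. Uqcrfs1 had a log2 change of -1.80 against -0.28 for Uqcrq. The mitochondrial gene mt-Cytb, which encodes cytochrome b, had 3681, 3857, 3174 and 2826 CPM, with no overlap and a log2 change of -0.33 (SE 0.06; edgeR quasi-likelihood adjusted p = 0.284). It was among the genes marked as lower in the authors' deposited table, with an adjusted p of 3.14e-04 there. The fitted log2 change was below 0 for mt-Cytb and for the 9 members (50.1% of all genes tested). Among the members the groups overlapped for Uqcrc1, Uqcrb and Cyc1. Uqcrfs1 is left out of this count because it is the targeted gene.

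Levels of different genes can be compared only per length, and the order depended on the length used. The deposited table gives a length for each gene that exceeds the principal GENCODE transcript by up to 5.03 times (Uqcrh) and falls short of it for Cyc1, whose annotated end lies farther downstream in GENCODE M21. Per kilobase of the principal transcript, WT levels ran from Uqcrh at 294 ± 16.7 CPM per kb (SD, n = 2) through Uqcr10 at 130 ± 7.56, Uqcrc1 at 113 ± 6.49, Uqcrc2 at 92.9 ± 1.58, Cyc1 at 76.7 ± 7.08, Uqcrb at 71.4 ± 5.23 and Uqcr11 at 71.2 ± 1.06 to Uqcrq at 30.5 ± 0.406 and Cycs at 5.10 ± 0.314. Cyc1, Uqcrb and Uqcr11 overlapped with their neighbours in that order, and the others did not. Among the 8 subunits the WT levels differed up to 9.62-fold on this length and up to 5.90-fold on the deposited length, where Cyc1 was highest at 97.7 ± 9.01 and Uqcrq lowest at 16.6 ± 0.220 CPM per kb. Cycs was lowest on both lengths. The recurring sequence shown above applies to the places of Cycs and Uqcrb in these orders, and no correction was made for it. Uqcrfs1, at 43.5 ± 2.20 CPM per kb in WT, ranked 8 of 10 on the principal transcript and 3 of 10 on the deposited length. In KO it stood at 12.5 ± 1.57 and ranked 9 of 10 on both, below every subunit member; on the deposited length its libraries overlapped with those of Uqcrq.
The make-up of the set hardly differed between libraries. Uqcrc1 took 22.5% to 23.3% of the summed CPM of the 9 genes, Uqcrc2 20.8% to 21.8%, Uqcrh 19.1% to 19.5% and Cyc1 13.6% to 14.5% over the 4 libraries. The share of Uqcrq was 5.46% and 5.75% in WT and 4.86% and 5.06% in KO.

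**Figure D4:**
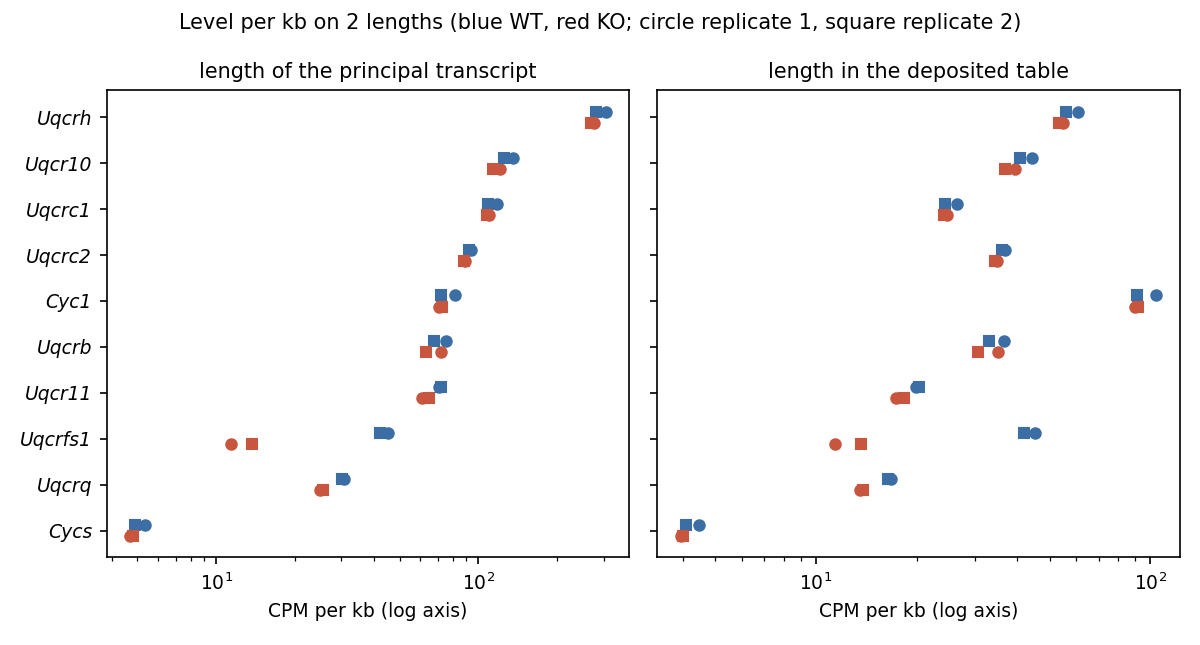
Level of the 9 genes and Uqcrfs1 in CPM per kilobase (log axes) in each library, on the length of the principal GENCODE transcript and on the length in the deposited table, with WT in blue and KO in red. Uqcrh is highest on the first length and Cyc1 on the second, Cycs is lowest on both, and Uqcrfs1 is the gene whose WT and KO points lie far apart.

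Most members are short genes, and short genes as a class had a median slightly below 0. With tested genes split into 3 equal classes by deposited length, 6 members were in the shortest class and 3 in the middle class. The median log2 change was -0.03 in the shortest class, with 58.3% of genes lower, and -0.006 in the middle class, with 52.1% lower, so the members' median of -0.10 lay below both. By mean level, 5 members were in the middle class, where the median was -0.02 and 55.4% were lower, and 4 in the highest class, at 0.002 and 48.8%. What part length plays in the members' difference was not tested. Reads in no annotated feature made up 17.2% and 18.6% of uniquely aligned reads in WT and 20.6% and 19.9% in KO, and this too moves with genotype; its part was not tested.

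Among the lists of genes that build complex III or work beside it, none of the tested genes passed the threshold. Of the 8 assembly factor genes tested 7 were lower in KO (50.1% of all genes), with a median log2 change of -0.06, and 3 were lower with groups that did not overlap (20.1% of all genes). Lyrm7, the chaperone that holds the Rieske protein before it is inserted, had 12.6, 11.9, 10.2 and 9.90 CPM, a log2 change of -0.29 (SE 0.11), and Smim4 was at -0.26 (SE 0.12). Among 3 supercomplex factors, which link respiratory complexes, Higd2a had a log2 change of -0.20 (SE 0.06) and Higd1a of 0.06 (SE 0.11). Of the 5 genes for haem attachment to cytochromes c and c1 or for electron exchange with cytochrome c, 4 were higher and 1 lower (50.1% of all genes), with a median of 0.05. Gfer, a sulfhydryl oxidase that passes electrons to cytochrome c, was at -0.22 (SE 0.10) and Ldhd, D-lactate dehydrogenase, at 0.30 (SE 0.17). For comparison, the nuclear subunits of complex IV, which accepts electrons from cytochrome c, were lower in 11 of 11 cases (50.1% of all genes) with a median of -0.14, and in 8 of them the groups did not overlap (20.1% of all genes); Cox6b1 was at -0.15 (SE 0.06) and Cox6a1 at -0.14 (SE 0.06). Their summed level was 1198, 1092, 1038 and 1060 CPM, again with WT replicate 1 apart, and no difference between the 2 sets was tested.
Of 9 tested genes for factors that act on respiratory chain genes, 6 were higher and 3 lower in KO (50.1% of all genes were lower), with a median of 0.03. In 4 of them both KO libraries were above both WT libraries, against 2709 of 13281 genes tested. In 0 of them both KO libraries were below both WT libraries (20.1% of all genes). The coactivator gene Ppargc1b had 6.76, 7.15, 8.13 and 9.58 CPM, which is 0.35 higher on the log2 scale (SE 0.14; edgeR quasi-likelihood adjusted p = 0.562), and Sp1 was at 0.10 (SE 0.05). Nrf1, a classic regulator of cytochrome c transcription, was at -0.08 (SE 0.06), and Ppargc1a had 1 to 4 counts per library and was not tested.

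RefSeq's table for GRCm38.p6 holds promoter windows of 5 members, Uqcrh, Cycs, Uqcrc1, Uqcr11 and Uqcr10; Uqcrc2, Uqcrb, Uqcrq and Cyc1 had no entry. The 250 bases before the start were searched on both strands for the NRF1 motif and the letters CCGGAAG (the ETS motif bound by GABPA), AAGATGGCG (YY1) and GGGCGG (SP1). CCGGAAG occurred in Uqcr11, 66 bases before the start, and on the opposite strand in Uqcrh, 10 bases before it, against 6.91% of all 32851 windows. The other 3 motifs gave no match in the 5 windows, against 3.74%, 0.606% and 32.7% of all windows. After the windows had been seen, the shorter letters GCATGCGC, a core of the NRF1 motif, and TGACGTCA, the cAMP response element, were searched too; each occurred once in Cycs, 60 and 169 bases before the start, against 2.26% and 1.55% of all windows. The 3 windows with a match are printed with these motifs in capitals. The windows are chr6:50566570-50566819 (Cycs), chr10:80406822-80407071 (Uqcr11) and chr4:116075071-116075320 (Uqcrh), all on the minus strand and written 5′ to 3′.
Cycs promoter: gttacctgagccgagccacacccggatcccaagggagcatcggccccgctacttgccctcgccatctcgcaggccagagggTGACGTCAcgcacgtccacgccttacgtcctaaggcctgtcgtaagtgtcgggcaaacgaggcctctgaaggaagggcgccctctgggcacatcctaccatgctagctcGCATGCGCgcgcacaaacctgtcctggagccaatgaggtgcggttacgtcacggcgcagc
Uqcr11 promoter: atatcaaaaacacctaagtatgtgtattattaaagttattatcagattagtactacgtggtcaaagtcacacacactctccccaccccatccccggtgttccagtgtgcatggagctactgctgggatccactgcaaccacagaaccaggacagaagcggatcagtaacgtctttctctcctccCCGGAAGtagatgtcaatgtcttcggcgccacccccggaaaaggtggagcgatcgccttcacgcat
Uqcrh promoter: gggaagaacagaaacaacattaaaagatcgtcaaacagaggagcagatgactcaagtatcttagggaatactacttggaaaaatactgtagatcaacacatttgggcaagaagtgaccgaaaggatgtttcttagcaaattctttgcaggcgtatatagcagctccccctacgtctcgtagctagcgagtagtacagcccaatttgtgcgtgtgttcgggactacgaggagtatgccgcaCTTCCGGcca
A match describes the letters in the window and was not tied to the RNA values.

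The genes nearest in profile to the members' mean were found over the 4 libraries. With each gene's log2 CPM centred on its own mean, the members' mean profile was 0.11, 0.02, -0.05 and -0.07. The nearest of 8341 genes with at least 10 CPM were Xrcc1, a scaffold of DNA single-strand break repair, at a distance of 0.0053 in log2 units, Itgb1bp1, an integrin-binding protein, at 0.0058, Acss2, an acetyl-CoA synthetase, at 0.0086, Ndufa8, a complex I subunit, at 0.0095, and Coro1a, an actin-binding protein, at 0.010. In all, 3783 of these genes were nearer to the mean profile than the farthest member was.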

How the data were processed

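RNA of sorted DP thymocytes was sequenced in 4 libraries, grouped by the genotype in each sample title. Reads, per the submitters' processing notes, went through Trimmomatic 0.33, then STAR 2.5.2 on mm10, then HTSeq; read length, HTSeq mode, strand setting and annotation release were not given in the sources used here. Raw counts for each Ensembl gene are what the authors deposited, and the series table and library files held the same values (0 differing cells). The authors' deposited comparison gives CPM, log2 fold changes, p-values and adjusted p-values, and the LR score per the file headers; gene lengths in the count table are the authors' own. HTSeq's summary lines (no feature: 17.2% to 20.6% of uniquely aligned reads) stayed out of totals and tests.

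Genes past filterByExpr (minimum count 10, minimum total 15) were tested by quasi-likelihood in edgeR 4.0.16 (R 4.3.3), with TMM factors, robust dispersions and genotype as sole term; the threshold was a Benjamini-Hochberg adjusted p under 0.05. P-values set each difference against the spread between these mice, which edgeR estimates for each gene with moderation over all genes tested. Standard errors are the log2 change over the root of F, and intervals use its degrees of freedom. The scripts were tested on simulated data. The members, lists and tests were chosen with earlier results of these data known. Named genes were the 9 members, Uqcrfs1 and mt-Cytb, genes whose symbol extends a member's, the 2 genes of smallest p in each list, and the 5 genes nearest in profile (1 gene that the rule names is not reported here); Nrf1, Ppargc1a, Alas1, Apaf1, single cell type markers and genes with recurring sequence were named after their values were seen. Alternatives were other scalings, filters and tests, DESeq2 1.42.0, a replicate block and each library left out.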

Additional observations from a re-analysis of the deposited data

How the results depend on the processing

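The fitted log2 change was below 0 for 9 of 9 members under every alternative tried except 1. Without KO replicate 2 Uqcrb turned to 0.0102 (from -0.1828 without KO replicate 1), and 8 of 9 were lower. The sign alone says little for some members. Without WT replicate 1 Uqcrc1 was at -0.0054, Uqcrb at -0.0068 and Cyc1 at -0.0092. Leaving out 1 library gave 8 to 9 lower members, 6 to 9 with groups that do not overlap, medians of -0.17 to -0.056, and 0 to 1 called members. The called member was Uqcrq in each case, and 1 member was called with edgeR's likelihood ratio test (adjusted p = 0.0314; 0.760% of all genes called), without a filter on low counts (0.0199; 0.911%) and without WT replicate 2 (0.0498; 2.65%). Fits without 1 library assume that the remaining library of that group varies as the others do. Of all genes, 20.1% were lower in KO without overlap with all 4 libraries, 35.8% without WT replicate 1 and 38.8% without WT replicate 2. These genes were 4606 of 13709 without KO replicate 1 and 4489 of 13664 without KO replicate 2. With or without overlap, 49.7% of all genes were lower without WT replicate 1 and 51.5% without KO replicate 2. With the replicate number as a block the count of called members stayed at 0 and the median at -0.10, while 27 of all genes tested were called against 3 without the block. Across genes the deviations of same-numbered libraries from their group means had a correlation of 0.075, so the numbers are not taken as pairs. With 2 mice per group, the members' differences of -17.5% to -4.15% mostly lie within intervals that include 0.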

Other observations

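Genes of haem synthesis supply the prosthetic group of cytochromes b, c1 and c. Of the 8 tested 5 were higher and 3 lower in KO (50.1% of all genes tested were lower), with a median log2 change of 0.02, and Alas1, the first enzyme of the pathway, stood at 27.4, 26.5, 27.0 and 28.3 CPM (order: WT 1, WT 2, KO 1, KO 2). Ppox was at -0.10 (SE 0.06), with groups that did not overlap, and Uros at -0.15 (SE 0.12). Genes of the apoptosome, the caspase-activating complex that cytochrome c nucleates, had a median log2 change of 0.05. Of the 6 tested 5 were higher and 1 lower in KO (50.1% of all genes tested were lower). The caspase inhibitor gene Xiap was at 0.09 (SE 0.05), and Apaf1, the scaffold that binds cytochrome c, stood at 108, 98.0, 104 and 113 CPM. None of these 14 genes passed the threshold.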
